A study of Mus musculus with 4 samples.

Results

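The cytochrome P450 genes are described here in alveolar type II (AT2) cells, which make surfactant and renew the alveolar lining, sorted from mouse lung on day 14 after bleomycin injury. Members were the protein-coding genes whose symbol has the form Cyp, number, letters, number, and whose raw counts summed to 20 or more over the 4 libraries. Of 93 such symbols among the 40092 rows of the count table, 29 reached this sum. Cyp51, the sterol demethylase, carries no letter in its symbol, and Tbxas1 and Ptgis, the thromboxane and prostacyclin synthases, are P450 enzymes under other names, so none of these belonged to the members. The members were thus chosen by their measured level, as a summed count, and the genotype did not enter the rule. Just inside it lay Cyp2e1 with a sum of 32 and Cyp2u1 with 34, and just outside it Cyp46a1 with 18 and Cyp2b19 with 16. A further 23 of the 93 had no count in any library.

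The data comprised 2 Ctrl libraries, from mice with the genotype Alkbh5 flox/+; Sftpc-CreERT2; Rosa26-mTmG, and 2 A5-CKO libraries, from mice with Alkbh5 flox/flox in place of flox/+. All mice carried Sftpc-CreERT2, a tamoxifen-inducible recombinase under the promoter of the surfactant protein C gene, and the Rosa26-mTmG reporter, and all received tamoxifen and bleomycin. Ctrl mice therefore also carried a floxed Alkbh5 allele, and the sort on GFP would keep cells descended from a recombined one, whatever its later identity. The ages of the mice and their number per library are not given in the sources used here. Alkbh5, the m6A RNA demethylase targeted in these mice, had 81.7 and 152 normalized counts (CPM, the counts scaled to a common library size with TMM factors) in Ctrl against 19.3 and 36.6 in A5-CKO, giving a log2 fold change of -2.06 ± 0.46 (standard error, SE) at an adjusted p of 0.528 in edgeR's quasi-likelihood test and of 0.0224 in DESeq2.

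The libraries held 18144865 to 20811757 counts, and a count of 3, taken as the floor of detection, was 0.128 to 0.177 CPM. All 12 AT2 markers were detected, with summed levels of 69270 to 97379 CPM in Ctrl and 42589 to 51270 CPM in A5-CKO, and for 9 of them both A5-CKO values were below both Ctrl values. Of all tested genes 23.5% had this order and 20.3% the opposite one. In sorted bulk samples, fewer cells of a type and less RNA per cell cannot be told apart. The summed club cell markers ranged from 2166 to 2691 CPM in Ctrl and from 1411 to 1848 CPM in A5-CKO. Most of this sum was Scgb1a1, at 2262 and 1936 CPM in Ctrl against 1518 and 1012 CPM in A5-CKO. The 10 club markers had a median log2 fold change of -0.071, with 2 lower and 3 higher in both A5-CKO libraries. The ciliated cell markers summed to 169.8 to 179.9 CPM in Ctrl and 60.1 to 149 in A5-CKO, mostly Tppp3. Tppp3 overlapped between genotypes, while 8 of 9 tested ciliated markers had both A5-CKO values below both Ctrl values. The AT1 markers summed to 2215 to 2336 CPM in Ctrl and 2154 to 2320 in A5-CKO. Of 8 tested AT1 markers 4 had both A5-CKO values above both Ctrl values and 1, Aqp5, had them below, with a median log2 fold change of 0.60. The macrophage markers split the libraries within each genotype, at 3042 CPM in Ctrl 1 and 475 in Ctrl 2, and at 277 in A5-CKO 1 and 2468 in A5-CKO 2. The fibroblast markers summed to 211 to 449.5 CPM in Ctrl and 123 to 1037 in A5-CKO, neutrophil markers to 380.0 to 684 and 308 to 838, lymphocyte markers to 169 to 761 and 218 to 684, and endothelial markers to 211 to 295 and 152 to 304, with Cldn5 at 0 in all libraries.

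Cytochromes P450 are heme enzymes that split molecular oxygen and insert an oxygen atom into their substrates. Those of the endoplasmic reticulum receive electrons from the reductase Por and from cytochrome b5, and those of mitochondria from ferredoxin. Some members act on drugs and inhaled toxicants, others on fatty acids and eicosanoids, and others on sterols, vitamin D and retinoic acid. Mouse airway epithelium is known for a high P450 content, which makes it a target of toxicants that these enzymes activate.

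The P450 level of the sorted cells was concentrated in a few members. Summed over the 29 members, the level was 1503 CPM in Ctrl 1 and 1636 in Ctrl 2, against 909 in A5-CKO 1 and 837 in A5-CKO 2, so the genotypes did not overlap. Cyp2f2 and Cyp2b10 together made up 64.8% and 66.8% of the members' counts in Ctrl against 46.4% and 50.9% in A5-CKO. Without these genes the remaining sum was 529.9 and 544 CPM in Ctrl against 487.5 and 411 in A5-CKO. Between groups of 2 libraries an exact permutation test cannot give a two-sided p under 0.333, so these sums are a description. On the scale of CPM per kilobase of the longest annotated transcript, averaged over the 4 libraries, Cyp2f2 stood at 201 and Cyp2b10 at 184, above 98.0% and 97.7% of the 15237 tested genes with a known length. Next were Cyp4v3 at 44.1, Cyp4b1 at 33.7, Cyp39a1 at 16.9, Cyp4f13 at 16.3 and Cyp4f16 at 12.2, followed by Cyp4f18 at 10.1, Cyp20a1 at 9.57 and Cyp2j6 at 6.60. The level of Cyp2j6 was above 50% of these genes, and the 15 members from Cyp27a1 downwards were each above at most 31.3% of them.

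**Figure D1:**
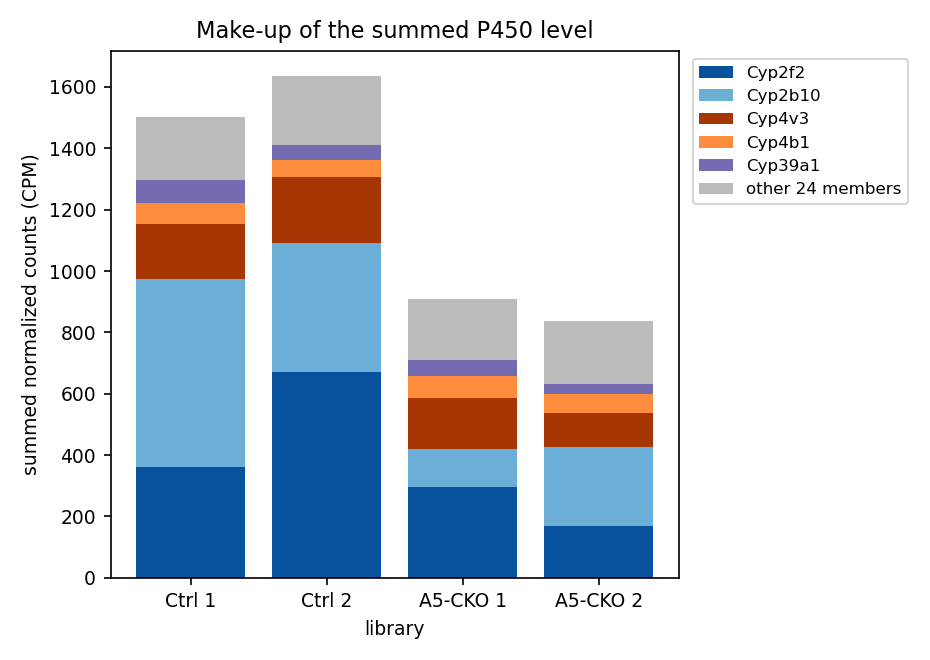
Stacked bars give the summed normalized counts (CPM, vertical axis) of the 29 P450 members in each library, split by gene. The bars reach 1503 and 1636 CPM in the Ctrl libraries and 909 and 837 CPM in the A5-CKO libraries, and most of the gap lies in the Cyp2f2 and Cyp2b10 segments.

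The genotype comparison used the quasi-likelihood test of edgeR, fitted to the 16661 genes that passed the filter on low counts and adjusted over all of them by Benjamini-Hochberg. Of the 29 members, 28 were tested and Cyp2u1 was not. None had an adjusted p under 0.05, as was the case for 0% of all genes tested, and the smallest adjusted p was 0.528, for members and for all genes. DESeq2, the tool named in the study's methods, with its default filtering gave 0 members at an adjusted p under 0.05, against 0.385% of all genes. At an unadjusted p under 0.05, edgeR gave 3 members, all lower in A5-CKO, where 9.18% of all genes passed, 4.48% as higher and 4.71% as lower. At the same threshold limma voom gave 3 members, where 8.67% of all genes passed. DESeq2 gave 4, where 6.75% of 27072 genes did, a larger set with no filter on low counts. Run on the same 16661 genes as edgeR, DESeq2 gave 4 members, where 1776 genes passed. Of the 28 tested members, 7 had both A5-CKO values below both Ctrl values and 3 had them above, where 23.5% and 20.3% of all tested genes did. The median log2 fold change (A5-CKO minus Ctrl) of the tested members was -0.043, beside -0.017 for all genes, with 13 members positive and 15 negative. That split moved to 18 positive and 10 negative with no scaling factors, which shifted the median of all genes to 0.30, to 17 and 11 with upper-quartile factors, and to 16 and 12 with RLE factors.

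**Figure D2:**
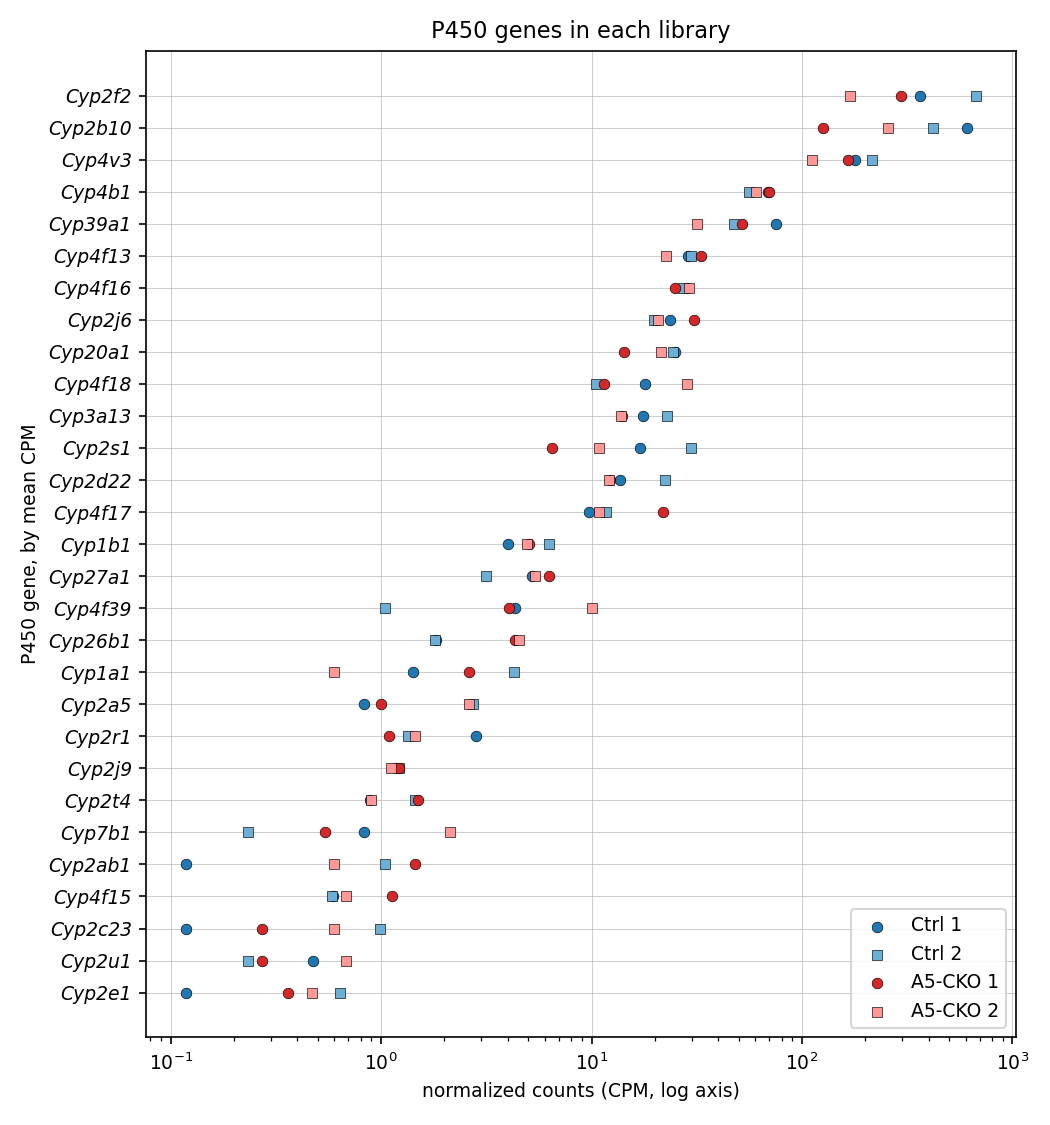
Each point is the normalized count (CPM, logarithmic horizontal axis) of 1 P450 member in 1 library, with genes ordered by their mean and libraries given by colour and marker. Cyp2f2 and Cyp2b10 stand highest with Ctrl above A5-CKO, Cyp26b1 shows A5-CKO above Ctrl, and points of low genes scatter within each genotype.

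The drug- and toxicant-metabolizing members held all 3 genes with an unadjusted p under 0.05. This class, written like the others after the counts were seen, had 9 members, all tested, with a median log2 fold change of -0.57. Cyp4b1, at 0.060, also activates toxicants but was placed with the fatty acid class, so these values depend on the placement. Of the 9 members, 5 had both A5-CKO values below both Ctrl values and none had them above. Of all tested genes, 23.5% had them below and 20.3% above. The summed level of the class was 1028 and 1181 CPM in Ctrl against 463 and 471 CPM in A5-CKO. Cyp2b10, the classical phenobarbital-induced P450 of liver, had 611 and 421 CPM in Ctrl 1 and Ctrl 2, and 126 and 256 CPM in A5-CKO 1 and A5-CKO 2. Its genotypes did not overlap, and the lowest library was A5-CKO 1. The log2 fold change was -1.43 ± 0.44 (SE), with an adjusted p of 0.528 from edgeR's quasi-likelihood test and an unadjusted p of 0.0149 in that model fitted across all genes. Without Ctrl 1 the log2 fold change of Cyp2b10 was -1.07 with 0.0702 as the unadjusted p in the edgeR fit across all genes, and without A5-CKO 1 it was -1.02 with 0.111.

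Cyp2f2, the enzyme of mouse club cells that activates naphthalene, had 362 and 672 CPM in Ctrl against 295 and 169.8 CPM in A5-CKO. Ctrl 2 stood apart as the highest library, and Ctrl 1 exceeded A5-CKO 1 by little. The log2 fold change was -1.15 ± 0.45 (SE), with an adjusted p of 0.528 and an unadjusted p of 0.0382 in edgeR's quasi-likelihood model fitted across all genes. It was -0.69 without Ctrl 2 and -0.84 without A5-CKO 2, with unadjusted p of 0.155 and 0.214 in the edgeR fit across all genes, and -0.91 with offsets for GC content and transcript length, with 0.0991. With no scaling factors, the unadjusted p was 0.0974 in that edgeR model. Scgb1a1, the defining secretoglobin of club cells, had 2262 and 1936 CPM in Ctrl against 1518 and 1012 CPM in A5-CKO, and of the 10 club cell markers 2 had both A5-CKO values below, and 3 above, both Ctrl values. Of all tested genes, 23.5% had them below and 20.3% above. Whether club cells in the sort had a part in the Cyp2f2 level was not tested.

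The order of Cyp2f2 and Cyp2b10 changed between libraries of the same genotype. Cyp2f2 made up 24.1% of the members' counts in Ctrl 1 and Cyp2b10 40.7%, whereas in Ctrl 2 the shares were 41.1% and 25.7%. In A5-CKO 1 they were 32.5% and 13.85%, and in A5-CKO 2 they were 20.3% and 30.6%. The log2 ratio of Cyp2f2 to Cyp2b10 counts was -0.76 and 0.68 in Ctrl against 1.23 and -0.59 in A5-CKO, so that the spread within a genotype covered the difference between genotypes.

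Cyp2s1, a P450 of epithelia outside the liver, had 16.9 and 29.7 CPM in Ctrl against 6.47 and 10.9 CPM in A5-CKO. The genotypes did not overlap, with Ctrl 2 the highest library and A5-CKO 1 the lowest. Its log2 fold change was -1.42 ± 0.48 (SE), with an adjusted p of 0.528 and an unadjusted p of 0.0211 in edgeR's quasi-likelihood model fitted across all genes. The unadjusted p in the edgeR fit across all genes was 0.143 without Ctrl 2, where the log2 fold change was -0.996, 0.105 without A5-CKO 1, where it was -1.11, and 0.0553 with no scaling factors, where it was -1.09. Cyp3a13 had 17.6 and 22.8 CPM in Ctrl against 13.9 and 13.8 CPM in A5-CKO, giving a log2 fold change of -0.54 ± 0.37 (SE). Cyp2d22 had 13.7 and 22.4 CPM in Ctrl against 12.2 and 12.1 CPM in A5-CKO, with -0.57 ± 0.42 (SE). Both were therefore lower in each A5-CKO library, and neither had an unadjusted p under 0.05. In the same libraries 8 of 9 tested ciliated cell markers and 9 of 12 AT2 markers had both A5-CKO values below both Ctrl values. Of all tested genes 23.5% did, and the part of either cell type in the levels of this class was not tested.

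Cyp1a1 and Cyp1b1, the classical target genes of the aryl hydrocarbon receptor, were low. Cyp1a1 had 1.42 and 4.31 CPM in Ctrl against 2.63 and 0.598 CPM in A5-CKO, so the genotypes overlapped. Its log2 fold change of -0.83 ± 0.91 (SE) became 0.12 without Ctrl 2. Cyp1b1 had 4.02 and 6.28 CPM in Ctrl against 5.03 and 4.96 CPM in A5-CKO, and its log2 fold change of -0.046 ± 0.53 (SE) changed sign under RLE or upper-quartile factors and under none. Cyp2a5, which oxidizes nicotine and coumarin, had 0.828 and 2.73 CPM in Ctrl against 0.996 and 2.61 CPM in A5-CKO. Cyp2e1, which oxidizes ethanol, had 2 to 11 counts in a library.

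All 3 members with an unadjusted p under 0.05 lie in a stretch of chromosome 7 from 25802469 to 27158564 (GRCm38.p6, the build of the counts) that holds 5 members, in the order Cyp2s1, Cyp2b10, Cyp2a5, Cyp2f2 and Cyp2t4. Cyp2s1 spans 25802469 to 25816525, Cyp2b10 spans 25897658 to 25926624 and Cyp2f2 spans 27119955 to 27133660. The neighbours Cyp2a5 and Cyp2t4 had log2 fold changes of 0.017 ± 0.84 (SE) and 0.029 ± 0.72 (SE), on 144 and 94 counts in all. A further 8 P450 genes of this stretch were no members, with at most 16 summed counts each. Several genes of the Cyp2a and Cyp2b subfamilies are near-identical copies, so reads shared among them cannot be assigned with certainty. A second stretch, on chromosome 17 from 32452697 to 32947415, held Cyp4f39, Cyp4f17, Cyp4f16, Cyp4f15 and Cyp4f13, of which none had an unadjusted p under 0.05.

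The sequence before the annotated start of the 3 lower genes is shown to let their upstream regions be compared. Each is the 250 bases that end at the outer start of the gene in RefSeq on GRCm38.p6, 5′ to 3′ on the strand of the gene, at chr7:25897408-25897657 on the plus strand for Cyp2b10, chr7:27119705-27119954 on the plus strand for Cyp2f2 and chr7:25816526-25816775 on the minus strand for Cyp2s1. Capitals mark matches on either strand to TTGCNNAA, a form of the C/EBP site, to GCGTG, the core of the aryl hydrocarbon receptor site, and to AGGTCA, the half-site of nuclear receptors.
Cyp2b10: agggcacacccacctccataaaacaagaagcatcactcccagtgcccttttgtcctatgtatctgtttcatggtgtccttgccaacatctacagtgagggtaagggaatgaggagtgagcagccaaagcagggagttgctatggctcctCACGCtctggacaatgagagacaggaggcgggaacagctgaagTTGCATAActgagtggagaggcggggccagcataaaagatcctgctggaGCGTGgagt
Cyp2f2: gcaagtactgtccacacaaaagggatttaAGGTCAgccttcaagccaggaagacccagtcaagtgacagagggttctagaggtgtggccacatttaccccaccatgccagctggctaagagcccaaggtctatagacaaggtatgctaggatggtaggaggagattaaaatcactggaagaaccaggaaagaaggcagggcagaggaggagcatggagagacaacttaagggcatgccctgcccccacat
Cyp2s1: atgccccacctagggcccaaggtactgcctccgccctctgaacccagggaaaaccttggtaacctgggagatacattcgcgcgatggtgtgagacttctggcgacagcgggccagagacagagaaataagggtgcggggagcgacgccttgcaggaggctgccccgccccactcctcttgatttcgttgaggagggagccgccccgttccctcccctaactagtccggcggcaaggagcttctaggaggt
The Cyp2b10 window held 1 match to TTGCNNAA, 58 bases before the start site, and 2 to GCGTG, and the Cyp2f2 window held 1 match to AGGTCA. The Cyp2s1 window held none of the 3 motifs. Of the 32851 windows of this length in the RefSeq table, 9.56% held TTGCNNAA, 28.2% held GCGTG and 14% held AGGTCA. The table had windows for 23 members, of which 4 held TTGCNNAA, 9 held GCGTG and 2 held AGGTCA. A member was counted if any of its windows matched, whereas the shares above are of single windows, so the units differ. For 11 of these 23 a window ended at the outer start of the gene, and for the other 12, Cyp1a1 and Cyp26b1 among them, the table's start site lies elsewhere, so the counts over members mix kinds of start. A match describes letters only, and the motifs do not overlap in these windows.

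Of the members acting on fatty acids and eicosanoids, none had an unadjusted p under 0.05. This class had 12 members and 11 tested, with 6 positive and 5 negative log2 fold changes and a median of 0.060, and its summed level was 364 and 374 CPM in Ctrl against 365 and 298 CPM in A5-CKO. Cyp4v3, a fatty acid omega-hydroxylase, had 179 and 215 CPM in Ctrl against 166 and 112 CPM in A5-CKO. The genotypes did not overlap, but A5-CKO 1 was close to Ctrl 1, and the log2 fold change of -0.50 ± 0.33 (SE) was -0.28 without A5-CKO 2 and -0.83 without A5-CKO 1. Cyp4b1, an enzyme of lung epithelium that also activates plant toxicants, had 68.9 and 56.0 CPM in Ctrl against 69.4 and 60.7 CPM in A5-CKO. The genotypes overlapped throughout, and the log2 fold change of Cyp4b1 was 0.060 ± 0.29 (SE), which turned negative without Ctrl 2 or without A5-CKO 1.

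The Cyp4f genes, which hydroxylate leukotrienes and long-chain fatty acids, differed among themselves. Cyp4f16 was even, with 28.3 and 27.2 CPM in Ctrl against 24.9 and 29.0 CPM in A5-CKO. Cyp4f13 had 28.9 and 29.7 CPM in Ctrl against 33.0 and 22.7 CPM in A5-CKO, so its A5-CKO libraries lay on either side of Ctrl. Their log2 fold changes, -0.043 ± 0.32 (SE) and -0.070 ± 0.35 (SE), changed sign with no scaling factors or upper-quartile factors, and that of Cyp4f16 with RLE factors also. Cyp4f17 had 9.76 and 11.7 CPM in Ctrl against 21.8 and 10.8 CPM in A5-CKO, high in a single library. Cyp4f15 had 10, 10, 25 and 16 counts in the order Ctrl 1, Ctrl 2, A5-CKO 1 and A5-CKO 2, higher in both A5-CKO libraries at a log2 fold change of 0.62 ± 0.75 (SE).

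Cyp4f18, which inactivates leukotriene B in myeloid cells, had 17.98 and 10.5 CPM in Ctrl against 11.5 and 28.5 CPM in A5-CKO. Its highest libraries were A5-CKO 2 and Ctrl 1, and the log2 fold change of 0.49 ± 0.54 (SE) became -0.34 without A5-CKO 2. Cyp4f39, known for the long acyl chains of skin ceramides, had 4.32 and 1.05 CPM in Ctrl against 4.07 and 10.04 CPM in A5-CKO. Its libraries differed 4.12-fold within Ctrl and 2.46-fold within A5-CKO, and the log2 fold change of 1.40 ± 0.82 (SE) was 2.82 without Ctrl 1. The macrophage marker sum was likewise higher in Ctrl 1 than in Ctrl 2 (3042 against 475 CPM) and in A5-CKO 2 than in A5-CKO 1 (2468 against 277 CPM). All 12 macrophage markers were detected and none separated the genotypes, and the part of macrophages in the levels of Cyp4f18 and Cyp4f39 was not tested.

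The Cyp2 genes among the members acting on fatty acids and eicosanoids were at moderate to low levels. Cyp2j6 had 23.7 and 19.9 CPM in Ctrl against 30.8 and 20.8 CPM in A5-CKO, and its log2 fold change of 0.24 ± 0.37 (SE) became -0.081 without A5-CKO 1, its highest library. Cyp2j9 had 20 to 27 counts in a library and a log2 fold change of -0.043 ± 0.66 (SE). Cyp2c23 had 2 and 17 counts in Ctrl against 6 and 14 in A5-CKO, and Cyp2u1, which was not tested, had 8 and 4 counts in Ctrl against 6 and 16 in A5-CKO.

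**Figure D3:**
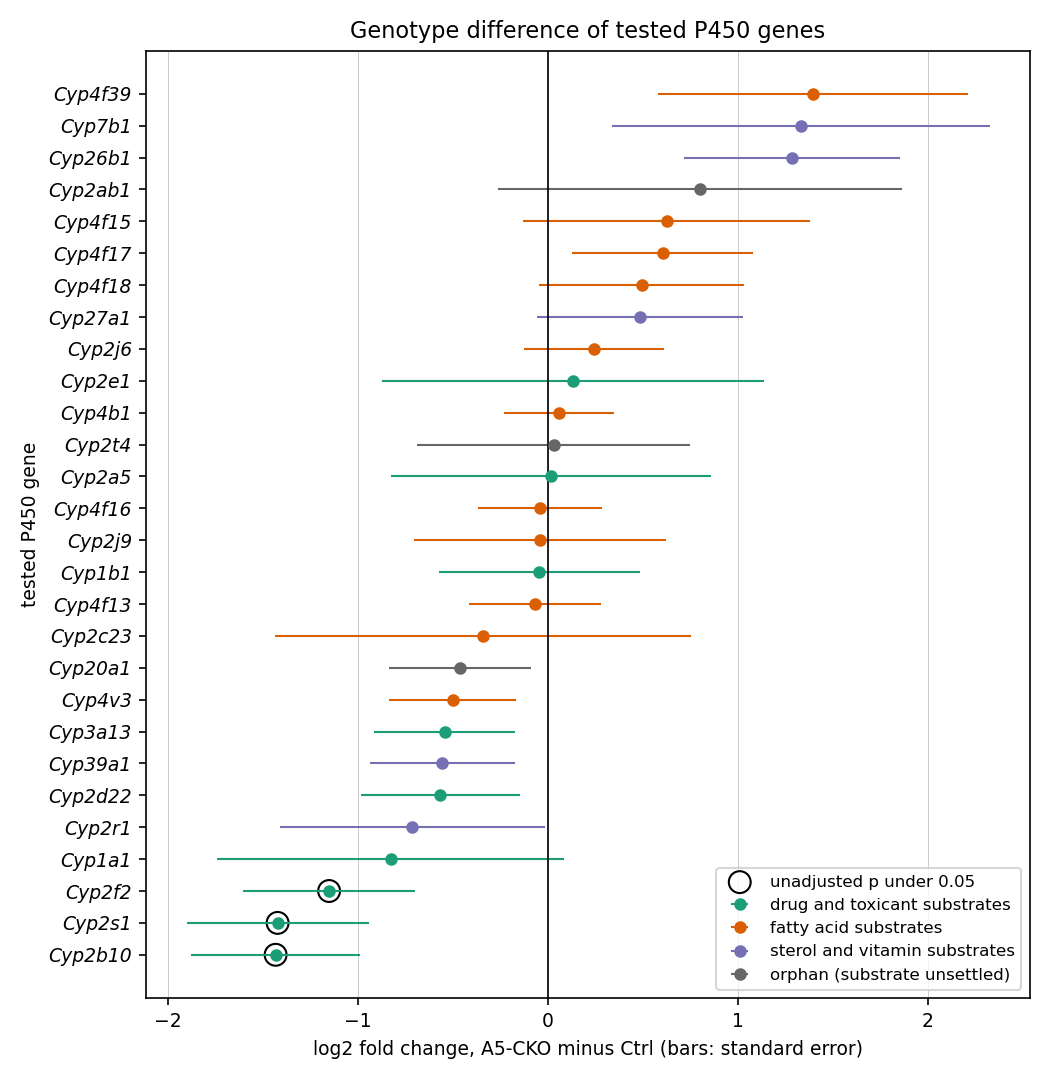
Points give the log2 fold change (A5-CKO minus Ctrl) of the 28 tested P450 members (horizontal axis) with bars of 1 standard error, coloured by substrate class, and rings mark an unadjusted p under 0.05 in edgeR. The ringed genes Cyp2b10, Cyp2s1 and Cyp2f2 lie at the negative end, at -1.43, -1.42 and -1.15, and the bars widen for genes of low count at the positive end.

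Members acting on sterols, vitamin D and retinoic acid numbered 5, all tested, with 3 positive and 2 negative log2 fold changes and none with an unadjusted p under 0.05. Cyp26b1, which clears retinoic acid, had 31 and 31 counts in Ctrl against 96 and 106 counts in A5-CKO. In CPM the values were 1.83 and 1.80 in Ctrl against 4.35 and 4.53 in A5-CKO, and the genotypes stood apart. The libraries differed 1.02-fold within Ctrl and 1.04-fold within A5-CKO. With counts this low and 2 libraries a genotype, such closeness does not measure the spread. The log2 fold change was 1.28 ± 0.57 (SE), with an adjusted p of 0.528 and an unadjusted p of 0.0584 in edgeR's quasi-likelihood model fitted across all genes. It stayed between 1.22 and 1.36 when any single library was omitted and between 1.25 and 1.60 in the other alternatives. DESeq2 with default filtering gave an unadjusted p of 0.0373 and an adjusted p of 0.440. Cyp26b1 lies on chromosome 6 from 84571414 to 84593908, and at 0.696 CPM per kilobase its level was above 13.3% of tested genes.

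Cyp39a1, an oxysterol hydroxylase, was the highest member of the class, with 75.0 and 47.8 CPM in Ctrl against 51.8 and 31.7 CPM in A5-CKO. The A5-CKO 1 library exceeded Ctrl 2, and the log2 fold change of -0.56 ± 0.38 (SE) ranged from -0.97 to -0.14 when any single library was omitted. Cyp27a1, the mitochondrial sterol hydroxylase, had 5.20 and 3.14 CPM in Ctrl against 6.29 and 5.39 CPM in A5-CKO, narrowly above Ctrl in both A5-CKO libraries, with a log2 fold change of 0.48 ± 0.54 (SE) that was 0.12 without Ctrl 2 and 0.95 without Ctrl 1. Cyp7b1, which acts on oxysterols, had 14 and 4 counts in Ctrl against 12 and 50 counts in A5-CKO. Its log2 fold change of 1.33 ± 0.99 (SE) rested on A5-CKO 2, without which it was 0.0054, and Ctrl 1 and A5-CKO 2 were again the higher library of each genotype, as for the macrophage markers, whose part was not tested. Cyp2r1, a vitamin D hydroxylase, had 48 and 23 counts in Ctrl against 24 and 34 counts in A5-CKO, with a log2 fold change of -0.71 ± 0.70 (SE) that was -0.012 without Ctrl 1.

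The 3 remaining members have no settled substrate. Cyp20a1 had 25.0 and 24.4 CPM in Ctrl against 14.3 and 21.5 CPM in A5-CKO, lower in both A5-CKO libraries at a log2 fold change of -0.46 ± 0.37 (SE) that was -0.21 without A5-CKO 1 and -0.82 without A5-CKO 2. Cyp2t4 had 15 to 33 counts in a library, and Cyp2ab1 had 2 and 18 counts in Ctrl against 32 and 14 in A5-CKO.

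Variation between libraries of a genotype was large for the low members. The Ctrl libraries differed more than 2-fold in 9 of the 29 members and the A5-CKO libraries in 10, and 12 members differed more than 2-fold within at least 1 genotype. The median fold between libraries was 1.64 within Ctrl and 1.635 within A5-CKO. In 9 of the 29 members, Cyp2b10 among them, Ctrl 1 exceeded Ctrl 2 and A5-CKO 2 exceeded A5-CKO 1. That is the order of the macrophage markers, and in 11 members, Cyp2f2 among them, both orders were the opposite. Cyp26b1 fell among the 9 by its scaling only, with 31 raw counts in each Ctrl library. The share of all genes with either order was not counted. Same-numbered libraries deviated with a correlation of -0.348 across all tested genes and of -0.344 across tested members.

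**Figure D4:**
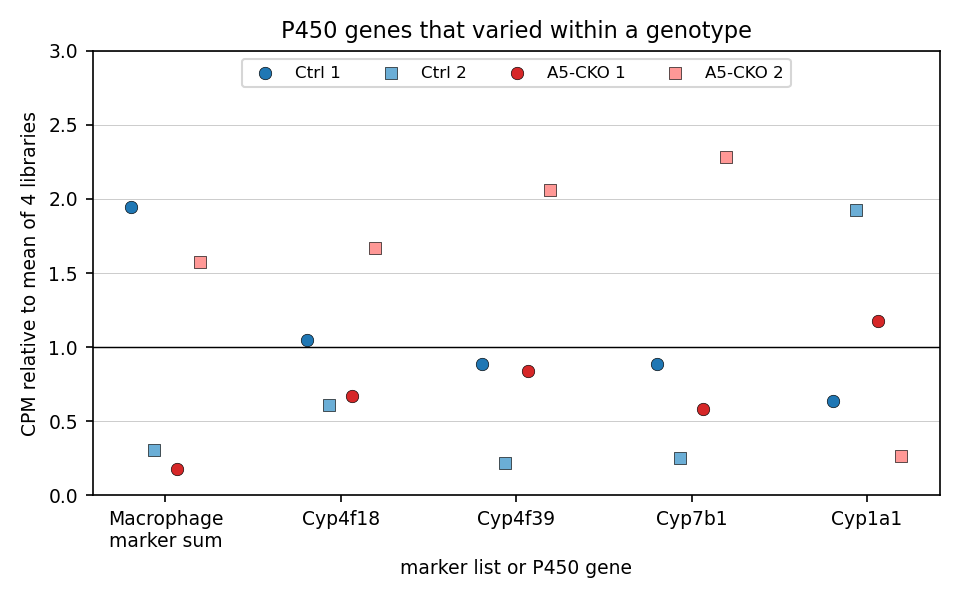
Points give the level in each library divided by the mean of the 4 libraries (vertical axis, CPM ratio) for the summed macrophage markers and for Cyp4f18, Cyp4f39, Cyp7b1 and Cyp1a1. For the marker sum and the first 3 genes the circle of Ctrl (Ctrl 1) and the square of A5-CKO (A5-CKO 2) are the higher point of their genotype, and Cyp1a1 shows the other order. The genes were picked for these orders.

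Genes related to the P450 enzymes were taken from 8 lists. These covered electron donors and heme supply, regulators, other drug-metabolizing enzymes, and retinoid, oxysterol and eicosanoid genes. The last list held 3 P450 genes outside the symbol pattern. Together 121 listed genes were found in the table, of which 104 were tested. At an unadjusted p under 0.05 there were 21 of them (20.2%, beside 9.18% of all genes), of which 3 had higher and 18 lower values in A5-CKO, with 0 at an adjusted p under 0.05 in edgeR and 2, Cbr2 and Cebpa, in DESeq2. The unadjusted count was 13 with no scaling factors and 11 with the replicate block, where 1877 and 754 of all 16661 genes passed. The median log2 fold change of the 104 genes was -0.38, beside -0.017 for all genes. As the lists were chosen with earlier results of these data known, these shares and medians are a description. The 12 AT2 markers, measured in the same libraries, had a median of -0.85.

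Among electron donors and heme enzymes, 0 of 18 tested genes were higher and 3 lower at an unadjusted p under 0.05 in edgeR. Of all tested genes, 4.48% were higher and 4.71% lower. Por, the reductase that supplies electrons to microsomal P450s, had 321 and 734 CPM in Ctrl against 222 and 299 CPM in A5-CKO. Por was not among the 3, with a log2 fold change of -1.02 ± 0.46 (SE, unadjusted p = 0.0648 in the edgeR fit across all genes) that was -0.34 without Ctrl 2, its highest library. Cyb5a, cytochrome b5 and 1 of the 3, had 420.5 and 279 CPM in Ctrl against 144 and 152 CPM in A5-CKO, with a log2 fold change of -1.24 ± 0.34 (SE). The other 2 were the heme synthesis enzymes Alad, at -0.86, and Urod, at -0.81.

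In the aryl hydrocarbon receptor pathway, 2 of 7 tested genes were higher and 0 lower at an unadjusted p under 0.05 in edgeR. Of all tested genes, 4.48% were higher and 4.71% lower. The receptor gene Ahr had 16.4 and 19.5 CPM in Ctrl against 33.0 and 34.3 CPM in A5-CKO, with a log2 fold change of 0.91 ± 0.33 (SE). Tiparp, a target gene that limits the receptor, had 46.7 and 41.8 CPM in Ctrl against 81.8 and 63.3 CPM in A5-CKO, with 0.71 ± 0.30 (SE), which was 0.26 with offsets for GC content and length. The repressor Ahrr had no count in Ctrl against 4 and 12 counts in A5-CKO and was not tested. Aldh3a1, another target gene, went the other way with 11.6 and 10.7 CPM in Ctrl against 6.34 and 7.48 CPM in A5-CKO, at -0.69 ± 0.44 (SE), and was picked after its values were seen. Both A5-CKO values were above both Ctrl values for 2 of the 7 tested genes and below them for 2. They were above for 20.3% of all tested genes and below for 23.5%. Cyp1a1 and Cyp1b1, which the same receptor controls, had the overlapping values given above.

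Of the nuclear receptors and partner factors, 0 of 15 tested genes were higher and 3 lower at an unadjusted p under 0.05 in edgeR. The shares of all tested genes were 4.48% higher and 4.71% lower. Cebpa, a C/EBP factor of liver and AT2 cells, had 1045 and 1532 CPM in Ctrl against 404 and 470.4 CPM in A5-CKO, with a log2 fold change of -1.56 ± 0.38 (SE, adjusted p = 0.528 in edgeR and 0.0297 in DESeq2). Nr1h3, the oxysterol receptor LXR alpha, had 46.1 and 42.4 CPM in Ctrl against 21.4 and 20.6 CPM in A5-CKO, with -1.07 ± 0.31 (SE). Rarg, a retinoic acid receptor, had 76.5 and 85.1 CPM in Ctrl against 54.7 and 42.4 CPM in A5-CKO, with -0.73 ± 0.29 (SE). Nr1i3, the receptor CAR that drives Cyp2b10 in liver, had 2.84 and 3.78 CPM in Ctrl against 3.49 and 2.35 CPM in A5-CKO, and it was chosen for mention after its values were seen.

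**Figure D5:**
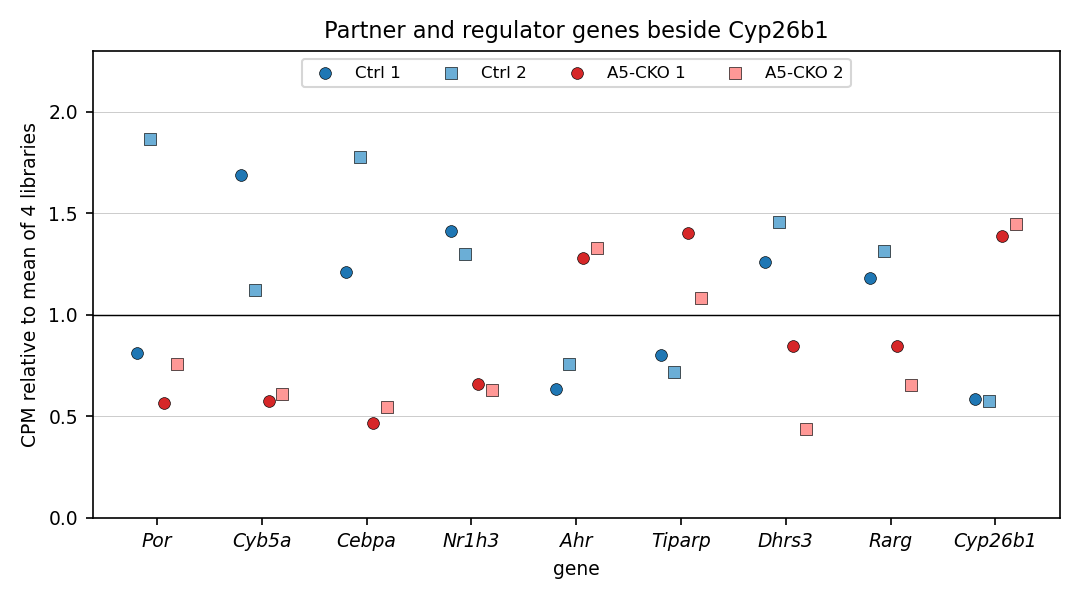
Points give the level of each gene in each library divided by its mean over the 4 libraries (vertical axis, CPM ratio) for 8 partner and regulator genes and Cyp26b1. Both A5-CKO libraries lie below both Ctrl libraries for Por, Cyb5a, Cebpa, Nr1h3, Dhrs3 and Rarg, and above them for Ahr, Tiparp and Cyp26b1. Of all tested genes 23.5% lay below in this way and 20.3% above. The genes shown do not stand for the lists, where others, such as Arnt and Ephx1, overlapped between genotypes.

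At an unadjusted p under 0.05 in edgeR, 4.48% of all tested genes were higher and 4.71% lower. Of the other drug-metabolizing enzymes, 0 of 25 tested genes were higher and 4 lower at this threshold. These were Cbr2, a carbonyl reductase of lung, at a log2 fold change of -1.76 ± 0.46 (SE, adjusted p = 0.528 in edgeR and 0.0186 in DESeq2), Ces1d, a carboxylesterase, at -1.32, Sult1a1, a sulfotransferase, at -1.25, and Aldh2, an aldehyde dehydrogenase, at -0.91. Ephx1, the microsomal epoxide hydrolase that acts on P450 products, had 292 and 327 CPM in Ctrl against 307 and 269.5 CPM in A5-CKO, with a log2 fold change of -0.10 ± 0.31 (SE). Of the 11 tested genes of retinoid handling, 0 were higher and 1 lower at this threshold. That was Dhrs3, which returns retinaldehyde to retinol, with 305 and 352 CPM in Ctrl against 205 and 106 CPM in A5-CKO, giving a log2 fold change of -1.08 ± 0.40 (SE), which was -0.72 without A5-CKO 2, beside the higher values of Cyp26b1.

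In edgeR, 4.48% of all tested genes were higher and 4.71% lower at an unadjusted p under 0.05. Among oxysterol, bile acid and sterol synthesis partners, 0 of 13 tested genes were higher and 6 lower at this threshold. Among them were the cholesterol synthesis enzymes Tm7sf2 at a log2 fold change of -1.11, Dhcr7 at -1.02 and Nsdhl at -0.84 (-0.45 without Ctrl 2), and the sterol carriers Stard3 at -0.83 and Stard5 at -0.72. Cyp51, the P450 of this pathway, had 177 and 156 CPM in Ctrl against 88.7 and 116 CPM in A5-CKO, with a log2 fold change of -0.70 ± 0.30 (SE) and 0.0544 as the unadjusted p in the edgeR fit across all genes. In eicosanoid synthesis, 1 of 12 tested genes was higher and 1 lower at this threshold. Ptgs2, the inducible cyclooxygenase, had 43.4 and 39.5 CPM in Ctrl against 132 and 76.3 CPM in A5-CKO (log2 fold change 1.33, standard error 0.35), which was 0.87 without A5-CKO 1 and 0.83 with offsets for GC content and length. Ptges2 had a log2 fold change of -1.01 ± 0.35 (SE), or -0.58 without Ctrl 1. Tbxas1, thromboxane synthase, had 24.1 and 4.89 CPM in Ctrl against 4.71 and 26.5 CPM in A5-CKO, high in Ctrl 1 and A5-CKO 2 as the macrophage markers were, whose part was not tested, and Ptgis, prostacyclin synthase, had 11.6 and 8.20 CPM in Ctrl against 1.36 and 15.2 CPM in A5-CKO.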

How the data were processed

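Gene counts of 2 Ctrl and 2 A5-CKO libraries of sorted AT2 cells were analysed. For RNA-seq, the authors trimmed adapters with Trim Galore 0.6.10, set aside reads matching ribosomal RNA, mapped the others to mm10 with HISAT2 2.2.1 and discarded duplicates. The count columns call the controls WT, whereas the labels give them as Alkbh5 flox/+. The deposited values are whole, unnormalized counts per gene, made with featureCounts 2.0.3 per the labels. The study's methods describe the counting, of uniquely mapped reads on an NCBI annotation, only for its MeRIP-seq libraries, and the strand setting is not given in the sources used here, so overlapping and antisense genes are uncertain. Of the counts from 1 to 10, 74.4% to 78.0% in a library were even, which is what counting both reads of a pair would give, and the counting mode is not given in the sources used here. Fits on halved counts were therefore added after seeing the data. The labels name no batch, and p-values measure the spread between these libraries. Chi-square tests of the counts gave 109.8 per degree of freedom between the Ctrl libraries and 96.35 between the A5-CKO libraries, so all 4 were treated as separate samples. Pairs of different genotype ranged from 88.71, for Ctrl 1 and A5-CKO 2, to 140.3, for Ctrl 2 and A5-CKO 2. Libraries of a genotype were thus not always the most alike.

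Genotypes were compared with the quasi-likelihood test of edgeR 4.0.16 (R 4.3.3) after filterByExpr and TMM scaling. The standard error (SE) was taken as the size of a log2 fold change over the root of its F statistic. DESeq2 1.42.0, limma voom (limma 3.58.1), other scalings and filters, a replicate block, spline offsets for GC content and length (4 degrees of freedom each), and each library left out were alternatives. The script was tested on simulated counts. Transcript lengths and GC content are those of the longest GENCODE M21 transcript and were found for all 29 members. Coordinates and promoters are RefSeq's on GRCm38.p6. The members and the gene lists were chosen with earlier results of these data known. Values per library are given for members with an unadjusted p under 0.05, the 10 highest per kilobase and a list of well-known members, and pathway genes under that p are named with a log2 fold change, as are Por, Ahr, Ahrr, Tiparp and Ephx1, with values per library for some of them. Other members named, such as Cyp4f39 and Cyp3a13, were chosen after their values were seen. Substrate classes and motifs were written after the counts were seen. The floor of 3 counts covers counting error only, while each SE also includes the spread between libraries as fitted across genes. The values of 1 gene of the pathway lists are not reported here.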

Additional observations from a re-analysis of the deposited data

How the results depend on the processing

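The log2 fold changes of 10 of the 17 members chosen by rule kept their sign in the 18 alternatives run, Cyp2b10, Cyp2f2, Cyp2s1 and Cyp26b1 among them, except that Cyp7b1 was fitted in only 17, not with halved counts. The other 7, at most 0.83 in size, did not, and the cause was not tested. With RLE factors Cyp4f16 was 0.0043 and Cyp1b1 0.0044, and DESeq2 on the same genes gave 0.0043 and 0.0042. With upper-quartile factors Cyp4f13 was 0.022, Cyp4f16 0.054 and Cyp1b1 0.058, and with no scaling factors they were 0.25, 0.27 and 0.28. With the GC content and length offsets Cyp4f13 was 0.24, Cyp4f16 0.17 and Cyp2j6 -0.064, and with these and the replicate block they were 0.21, 0.17 and -0.080. Omitting single libraries gave ranges of -0.38 to 0.14 for Cyp4f13, -0.19 to 0.051 for Cyp4f16, -0.081 to 0.47 for Cyp2j6, -0.13 to 0.27 for Cyp4b1, -0.27 to 0.27 for Cyp1b1, -2.26 to 0.12 for Cyp1a1 and -0.34 to 1.005 for Cyp4f18.

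The 3 members at an unadjusted p under 0.05 became 5 with the offsets (Cyp2b10, Cyp2s1, Cyp26b1, Cyp39a1 and Cyp4v3), and 1 to 3 when single libraries were omitted, with 1 left without Ctrl 2 (Cyp2b10) and 1 without A5-CKO 1 (Cyp2f2). The members' median was 0.056 with upper-quartile factors, 0.28 with no scaling factors, 0.12 with the offsets and the block, and -0.13 to 0.097 when single libraries were omitted. The 21 pathway genes became 13 with no scaling factors, 11 with the replicate block, 8 with the block and the offsets, and 6 to 25 when single libraries were omitted.

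The replicate numbers were not taken to pair the libraries: across genes, same-numbered libraries deviated with a correlation of -0.35, and no label ties them to a batch. Under the replicate block 2 members had an unadjusted p under 0.05 and 0 an adjusted one. A crossed pairing, chosen after seeing the data, gave 1 member (Cyp2b10) and 230 of 16661 genes at an adjusted p under 0.05 in edgeR. Halved counts, also chosen after seeing the data, left 23 members tested and 3 at an unadjusted p under 0.05. The spread between libraries (a biological coefficient of variation of 41.6%) and, for members under 1 CPM, the counts themselves limit these results.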
